A study of Mus musculus with 3 samples.

Results

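The chromatin-bound RNA of 9 genes for transcription factors of the macrophage lineage was examined in twice-stimulated mouse macrophages. The genes were taken by symbol from a list (Spi1, Runx1, Cebpa, Cebpb, Cebpd, Maf, Mitf, Tfec and Zeb2), and were 9 of 55536 annotated genes and of 22028 protein-coding genes. All 9 had rows in both sets of tables. Levels are given as TPM, a unit that divides reads by transcript length and scales each library to the same total, so that genes can be set side by side.

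Macrophages acquire and keep their identity through a small set of DNA-binding proteins that act together at enhancers. PU.1, the product of Spi1, opens myeloid enhancers together with RUNX1 and the C/EBP proteins, and MAF restrains the self-renewal of differentiated macrophages. MITF and TFEC are basic helix-loop-helix factors of the family that controls lysosome genes, and ZEB2 is a zinc-finger repressor that holds back the programmes of other lineages. Several of these genes have alternative promoters and very long introns, which matters in chromatin RNA because transcripts are caught there before splicing is finished.

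The cells were bone-marrow-derived macrophages of C57BL/6J mice. They had been exposed to Lipid A, the membrane anchor of bacterial lipopolysaccharide and a TLR4 ligand, at 100 ng/ml for 12 h. After 12 h without Lipid A they had received 100 ng/ml again, and chromatin was fractionated 60 min later. All 3 libraries, replicates 1, 2 and 3, belonged to this 1 group. Since untreated and singly dosed cells were not part of the design, every value below is a level and none is a response. The replicates were made from 1000, 250 and 500 ng of RNA, were registered as separate biosamples under 1 donor entry, and their sex and age were not collected. Whether the libraries stem from different animals or cultures is not stated in the labels. The p-values given here therefore measure only the spread between these samples, which may be technical.

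Gene counts summed to between 12602702 and 17222239 per library, and 3 counts, the limit that a count of 0 allows, equalled 0.174 to 0.238 CPM (counts scaled to the library total). Such limits cover counting error only. Chi-square per gene between pairs of libraries was 61.6 to 102, so no library was a copy of another. All 10 macrophage markers, among them Adgre1 and Csf1r, had at least 10 TPM in every library, and all 10 neutrophil, 8 T and NK cell and 6 erythroid markers were undetected in the gene tables (at most 3 counts in every library), although kallisto listed Cd3d at 14.4, Cxcr2 at 4.31 and Cd8a at 1.21 TPM. No B cell, mast cell or dendritic cell marker, of 6 each, reached 1 TPM in every library, and 5, 4 and 1 of them were undetected. Replicate 2 stood apart in its stromal markers. All 11 of them were highest there, with a summed level of 722 TPM against 0.07 and 2.38 TPM in replicates 1 and 3, and Lum, Pdgfra, Thy1 and Cxcl12 had no count in the other libraries. In bulk RNA, fewer cells of a type and less RNA per cell cannot be told apart.

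The 9 genes spanned more than 3 orders of magnitude on the TPM scale. In the gene tables, 8 of 9 reached 1 TPM in every library, 7 reached 10 TPM and 2 reached 100 TPM. Among all protein-coding genes the corresponding shares were 38.9, 16.7 and 2.15%. The median of the 9 means was 49.3 TPM, beside 0.56 TPM for all protein-coding genes and 4.06 TPM for the 13841 that were detected. Zeb2 alone held 75.7% of the summed TPM of the 9 genes. From highest to lowest, the mean levels ran Zeb2, Tfec, Runx1, Spi1, Mitf, Maf, Cebpb, Cebpd, Cebpa. Of the 8 neighbouring pairs in that order, 6 had library ranges that did not overlap. The ranges overlapped for Spi1 and Mitf and for Mitf and Maf, so these 3 genes could not be ranked beyond their spread. The second table moved Spi1. In the kallisto layout it stood above Runx1, with a lowest value of 139 against a highest of 118 TPM, and its range overlapped that of Tfec.

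**Figure D1:**
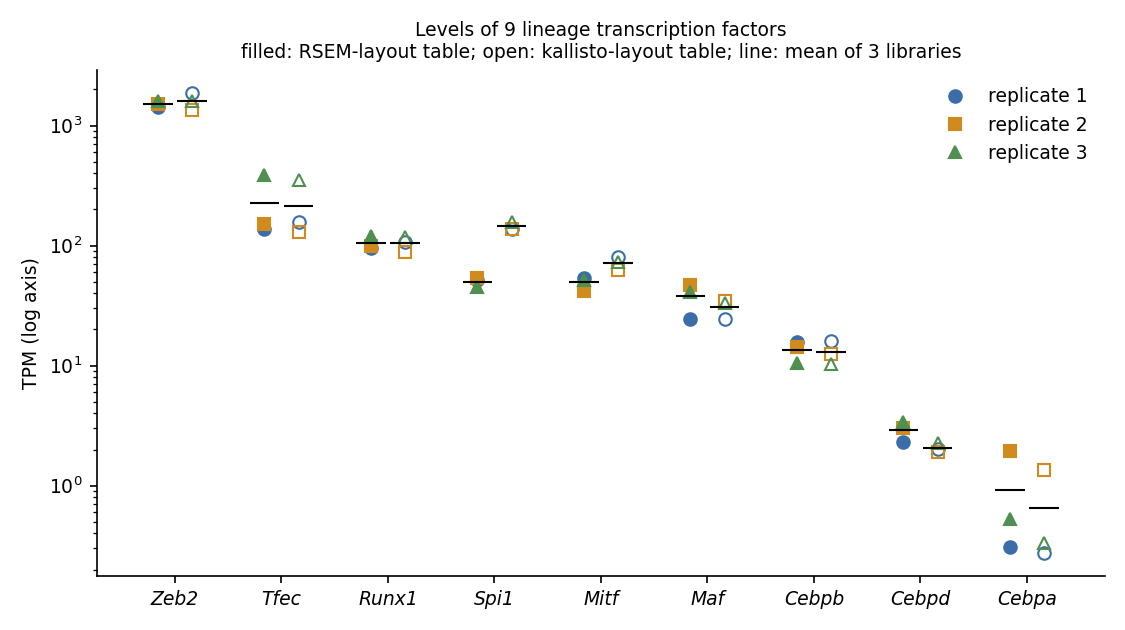
TPM of the 9 genes (log axis) in each of 3 libraries, in the RSEM-layout gene tables (filled symbols) and as sums of the kallisto-layout transcript tables (open symbols), with lines at the means. Zeb2 lies at or above 1340 TPM in every library of both tables, Cebpa lies below 2 TPM, and Spi1 is the gene whose open symbols stand well above its filled ones.

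Spi1 encodes PU.1, the ETS-family factor without which macrophages do not form. The gene (ENSMUSG00000002111.8, mm10 chromosome 2, 91082390 to 91115756, + strand, 4 annotated isoforms) had 51.3, 53.4 and 45.1 TPM in replicates 1, 2 and 3, from 700, 680 and 656 counts. Its mean was 49.9 ± 4.30 TPM (SD, n = 3), and the libraries lay close together on this scale. About as much of this RNA came from upstream of the PU.1 coding isoform as from the isoform itself. Spi1-202, a 2-exon processed transcript of 613 bases, begins 18 bases from the first annotated start of the gene and ends 7920 bases from it. It therefore stops short of Spi1-201, the isoform with the full coding sequence, which begins 13706 bases from the first start. Spi1-202 had 21.2, 27.0 and 22.4 TPM and Spi1-201 had 18.0, 23.3 and 20.9 TPM, so the 2 transcripts overlapped in level. They made up 47.2 ± 5.19% and 41.8 ± 5.91% of the Spi1 TPM. The third isoform, Spi1-204, runs from the upstream start into the coding exons and had 9.23, 1.36 and 1.80 TPM, highest in replicate 1.

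Of the 8 genes tested, Spi1 had the largest difference between the tables. In the kallisto-layout tables, which the authors made from the same reads without the alignment, Spi1 had 139, 139 and 157 TPM, a mean of 145 ± 10.6 TPM (SD, n = 3). Every kallisto value was more than 2 times the highest gene-table value. Relative to the median shift of all genes in each library, the difference was 1.15 on the scale of log2(TPM + 1) with an SE of 0.11 (limma, Benjamini-Hochberg adjusted p = 0.0020), and it was positive in 3 of 3 libraries. Spi1 was the only one of 8 tested members that passed an adjusted p of 0.05 with a difference of at least 1. Of all 12367 genes tested, 14.5% were called higher in the kallisto layout and 0.445% were called higher in the RSEM layout, so that 1 of 8 is near the background. Cebpa was too low to be tested. Runx1, Tfec, Cebpb, Maf and Cebpd were lower in the kallisto layout by that measure, with differences of −0.38, −0.43, −0.45, −0.62 and −0.71 (limma, adjusted p = 0.0088 to 0.033), all smaller in size than 1. Without subtraction of the library medians, which were 0.23 to 0.47, the same 5 differences were −0.34 to −0.01 (limma, adjusted p = 0.091 to 0.95), so their direction is relative to other genes only. Zeb2 and Mitf differed by −0.30 and 0.17 (limma, adjusted p = 0.10 and 0.25). The excess of Spi1 lay in its short isoforms. Spi1-203, of 402 bases, had 78.8 TPM by kallisto and 1.51 TPM in the RSEM layout, and Spi1-204, of 544 bases, had 21.4 and 4.13 TPM. The 2 leading isoforms were alike in both, at 24.3 and 23.5 TPM for Spi1-202 and at 20.3 and 20.8 TPM for Spi1-201.

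Runx1 encodes the DNA-binding partner of CBFB and is transcribed from a distal and a proximal promoter. The gene (ENSMUSG00000022952.17, chromosome 16, 92601466 to 92826149, − strand, 7 isoforms) had 96.0, 98.6 and 121 TPM, a mean of 105 ± 13.5 TPM (SD, n = 3). Replicate 3 was highest and the other libraries were nearly equal on TPM. On log2 CPM with TMM factors replicate 2 was lower, at 7.47 against 8.14 in replicate 1. RNA was assigned to isoforms of both starts, but starts were not measured. Isoforms that begin at the distal start held 45.6 ± 3.06% of the TPM, those that begin at the proximal start 128821 bases further on held 33.6 ± 3.85%, and those with starts from 130024 bases on held 20.7 ± 1.94%. The kallisto-layout shares of the same groups were 48.5, 26.1 and 25.3%. The distal share was 42.1% in replicate 3 and 47.4% in each of the others.

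The windows before the 2 Runx1 starts differ in base composition and are shown for that reason, without the bases that lie in annotated exons and with each CpG in capitals. Sequences are from RefSeq promoter windows of GRCm38.p6, 5′ to 3′ on the − strand. The distal one is chr16:92826150-92826324 and the proximal one is chr16:92697329-92697579.
Runx1 distal start: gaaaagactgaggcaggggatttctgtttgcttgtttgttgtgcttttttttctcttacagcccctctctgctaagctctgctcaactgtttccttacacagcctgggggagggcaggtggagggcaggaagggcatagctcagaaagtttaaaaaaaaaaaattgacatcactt
Runx1 proximal start: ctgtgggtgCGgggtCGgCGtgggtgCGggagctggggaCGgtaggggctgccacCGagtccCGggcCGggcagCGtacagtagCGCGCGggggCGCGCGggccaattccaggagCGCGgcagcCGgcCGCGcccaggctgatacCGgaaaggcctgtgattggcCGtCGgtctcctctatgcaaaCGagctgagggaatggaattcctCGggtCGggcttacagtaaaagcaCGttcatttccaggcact
The distal stretch of 175 bases holds 0 CpG and the proximal stretch of 251 bases holds 27. Over the full windows of 300 bases, which run from 250 bases before the start to 50 after it, the distal one had 45.0% GC and 2 CpG and the proximal one 69.0% GC and 35 CpG. The median of all 32851 windows was 52.7% GC and 7 CpG. The distal group had 47.7 ± 2.77 TPM and the group at 128821 had 35.7 ± 8.60 TPM (SD, n = 3), lower in 3 of 3 libraries. That order rests on where proximal starts are divided. The starts from 130024 on lie within the first exon of the proximal isoform Runx1-202, and with both proximal groups joined, an alternative chosen later, they had 50.55, 51.9 and 69.9 TPM, above the distal 45.5, 46.8 and 50.8 TPM in 3 of 3 libraries. By kallisto the joined groups had 55.2, 44.2 and 62.1 TPM against 51.7, 44.3 and 55.5 TPM, so neither set of isoforms was ahead throughout.

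Most Runx1 RNA was assigned to transcripts that end inside introns. Runx1-207, a processed transcript that starts 75 bases from the distal start and has its last exon 8441 bases in, within the second intron of the distal coding isoform Runx1-201, had 38.2, 35.2 and 38.5 TPM. It was the leading isoform, at 35.8 ± 3.96% of the gene. Runx1-206, annotated as retaining an intron, followed with 27.8, 27.2 and 39.5 TPM. The distal full-length isoform Runx1-201 had 3.43, 5.85 and 6.48 TPM, below Runx1-207 in every library. Runx1-203, a coding isoform that starts 130024 bases from the first start, had 16.4, 9.58 and 13.1 TPM. Runx1-206 reads through the 5′ splice site of an internal coding exon (last base at chromosome 16, 92688976) that Runx1-201 and Runx1-203 splice. The junctions below carry that choice, with 15 exon bases in lower case and the 15 bases that follow them in each transcript in capitals.
Runx1-206, read-through: ggcggagcggtagagGTGCGTATCTGTCAC
Runx1-203, spliced: ggcggagcggtagagGCAAGAGCTTCACTC
The isoform that keeps the GT of the splice site held 50.1 ± 2.599% of the TPM of isoforms with this exon end (41.98% by kallisto). The shares were 51.6, 47.1 and 51.7% in replicates 1, 2 and 3.

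The C/EBP members were the lowest of the 9. C/EBPα drives the step from progenitor to granulocyte and monocyte fates, and C/EBPβ and C/EBPδ are the forms used by mature and activated macrophages. Cebpb (ENSMUSG00000056501.3, chromosome 2, 167688915 to 167690418, + strand), a gene with a single exon, had 15.9, 14.4 and 10.6 TPM and a mean of 13.6 ± 2.74 TPM (SD, n = 3). Cebpd (ENSMUSG00000071637.5, chromosome 16, 15887286 to 15891031, + strand) had 2.32, 3.05 and 3.36 TPM and a mean of 2.91 ± 0.534 TPM. Cebpa (ENSMUSG00000034957.10, chromosome 7, 35119293 to 35121928, + strand) had 0.31, 1.93 and 0.53 TPM, a mean of 0.923 ± 0.879 TPM, from 11, 58 and 18 counts. The 3 genes did not overlap in any library. Both Cebpb and Cebpd share bases with a gene on the other strand, Tmem189 at 19.7 TPM over 908 bases and Spidr at 6.22 TPM over 1808 bases. Whether counting used strand is not given in the sources used here, so the division of reads within these pairs is uncertain.

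Cebpa was highest in replicate 2 on each of 5 scales tried, by 3.33 to 6.23 times over the lowest library. Replicate 2 was also the library with the stromal markers given above. In the same library the mesenchymal factor genes Prrx1 and Twist1 had 496 and 61 counts, against 0 in replicates 1 and 3. The part of stromal RNA in the Cebpa level was not tested. Without replicate 2, Cebpa stood at 0.42 TPM.

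Other genes of the C/EBP family exceeded these 3. Ddit3, whose product CHOP dimerises with C/EBP proteins in stress, had 75.5 ± 19.0 TPM and the ubiquitous Cebpg had 44.6 ± 3.39 TPM (SD, n = 3), while the granulocyte form Cebpe was undetected. The list holds 7 gene entries because the symbol Ddit3 has 2 of them, the second listed at 0 in the gene tables and at 40.0 TPM by kallisto. Of these 7 entries, 3 reached 10 TPM in every library.

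Maf, which encodes the c-MAF protein, differed between libraries by almost 2 times on TPM and by less on the other scales. The gene (ENSMUSG00000055435.6, chromosome 8, 115682942 to 115707794, − strand, 2 isoforms) had 24.7, 47.3 and 41.4 TPM, a mean of 37.8 ± 11.7 TPM (SD, n = 3). Replicate 1 was lowest. The antisense gene Gm15655, which overlaps Maf by 2156 bases, had 0, 30.5 and 23.2 TPM from 0, 72.35 and 64.62 counts, and was also lowest in replicate 1. Its mean was 17.9 TPM in the gene tables and 5.42 TPM by kallisto. Reads of Maf and Gm15655 cannot be told apart without strand. Most of the Maf RNA was in Maf-202, a single exon of 6360 bases that runs past the 5′ splice site of the multi-exon isoform Maf-201. Both are coding isoforms. Maf-202 had 18.5, 38.1 and 36.2 TPM and Maf-201 had 6.15, 9.14 and 5.24 TPM, so the unspliced form was higher in 3 of 3 libraries. The junction is shown with exon bases in lower case and the bases that follow in capitals, at chromosome 8, 115705755.
Maf-202, read-through: tcccgaatttttcatGTGAGTGTGACACGC
Maf-201, spliced: tcccgaatttttcatGTACCCAAGGGACTC
Read-through made up 81.0 ± 6.14% of the Maf TPM (82.8% by kallisto, as a ratio of mean TPM), the largest share among the 7 splice sites examined. In its family, the small forms, which lack an activation domain, had 53.0 ± 15.7 TPM for Mafg, 23.9 ± 4.32 TPM for Maff and 12.7 ± 2.31 TPM for Mafk. Mafa and Nrl, the forms of pancreas and retina, were undetected.

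Mitf is best known for pigment cells and osteoclasts and is transcribed from a row of alternative promoters. The gene (ENSMUSG00000035158.15, chromosome 6, 97807052 to 98021349, + strand, 8 isoforms) had 54.1, 42.1 and 51.8 TPM, a mean of 49.3 ± 6.35 TPM (SD, n = 3), lowest in replicate 2. Isoforms of the first annotated start held 92.9 ± 1.77% of this. The start 184740 bases further on, which gives the M form of melanocytes, held 3.25 ± 1.73%, or 1.97, 2.00 and 0.70 TPM. Kallisto divided the reads otherwise, with 67.4% at the first start, 18.7% at the M start and 10.5% at a start 122747 bases in that was listed at 0 in the RSEM layout. Isoforms of the first start were ahead in every library of both tables. Starts were not measured. Mitf-206, an isoform of the first start with 53.5% of the gene, has 1130 of its 1360 bases in an exon that begins 133998 bases in. That exon also lies beyond the start at 122747, and which start this RNA came from was not tested.

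The windows before the first and the M start of Mitf are shown because the tables disagree on the share of the M start. Bases in annotated exons are left out, and capitals mark matches to searched motifs, on either strand, so that TGTGGT and TATAAA stand here as ACCACA and TTTATA. The first is chr6:97806808-97807051 and the M window is chr6:97991533-97991791, both on the + strand of GRCm38.p6, from RefSeq.
Mitf first start: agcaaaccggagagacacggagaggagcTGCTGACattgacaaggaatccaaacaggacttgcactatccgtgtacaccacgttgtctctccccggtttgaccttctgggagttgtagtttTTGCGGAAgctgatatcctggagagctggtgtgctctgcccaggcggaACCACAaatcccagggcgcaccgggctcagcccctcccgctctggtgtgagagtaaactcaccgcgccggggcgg
Mitf M start: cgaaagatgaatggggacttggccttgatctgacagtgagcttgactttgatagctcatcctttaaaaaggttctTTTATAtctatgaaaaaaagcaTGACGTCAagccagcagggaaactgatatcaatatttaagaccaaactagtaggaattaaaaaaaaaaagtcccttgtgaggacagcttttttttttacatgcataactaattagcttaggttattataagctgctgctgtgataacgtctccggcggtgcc
The 11 motifs searched on both strands were GAGGAAGT and its ETS core GGAAGT, TTGCNNAA for C/EBP, TGTGGT for RUNX, CACGTG and CATGTG for E-boxes, GGGANTTTC for NF-kB, TGANTCA for AP-1, TGACGTCA for the cAMP response element, TGCTGAC for the MAF element, and TATAAA. Every GAGGAAGT match contains GGAAGT, and overlaps were allowed. The first window held TGCTGAC, TTGCNNAA and TGTGGT, which occur in 4.67, 10.8 and 16.8% of all windows, and 22 CpG. In the M window TATAAA and TGACGTCA were found, which occur in 13.6 and 1.79% of windows, and 8 CpG. A match describes letters only and does not show binding.

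Among Mitf isoforms the retained-intron transcript Mitf-206 led, with 29.6, 20.1 and 30.1 TPM, or 53.5 ± 5.24% of the gene. It shares the first start with the longest coding isoform, Mitf-202, which had 12.3, 16.7 and 16.5 TPM. Mitf-206 was higher in 3 of 3 libraries, least so in replicate 2. The 2 transcripts part at the end of an exon 134250 bases from the first start (chromosome 6, 97941302), shown as above.
Mitf-206, read-through: atggaagtccttaagGTATGTGAGTGTTGC
Mitf-202, spliced: atggaagtccttaagGTGCAGACCCACCTG
Read-through made up 55.3 ± 4.54% of the TPM of isoforms with this exon end (57.5% by kallisto).

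Tfec, a relative of Mitf expressed mainly in macrophages, was the second highest gene and the most uneven of the well-measured ones. The gene (ENSMUSG00000029553.10, chromosome 6, 16833373 to 16898441, − strand, 5 isoforms) had 139, 151 and 387 TPM from 2892, 2778 and 7728 counts. Replicate 3 was 2.79 times the lowest library, while replicates 1 and 2 were close on TPM. The mean was 226 ± 140 TPM (SD, n = 3). Replicate 3 remained highest on all 5 scales, by 2.69 to 3.67 times over the lowest library. The same held for each of the 4 leading isoforms, with 117, 116, 90.5 and 59.0 TPM in replicate 3 for Tfec-203, Tfec-204, Tfec-202 and Tfec-201, and at most 47.0 TPM in the other libraries. In replicate 3 the stromal markers summed to 2.38 TPM. Of the 10 macrophage markers 8 were lowest there, with sums of 1696, 1868 and 1301 TPM in replicates 1, 2 and 3, and the part of this difference in the Tfec level was not tested.

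The spliced coding isoform Tfec-201 held 14.3 ± 0.867% of the Tfec TPM in the RSEM layout and 23.2 ± 3.16% by kallisto, where it was the leading isoform in replicate 1. Tfec-203, annotated as retaining an intron, held 29.0%, the single-exon Tfec-204 held 27.3% and the retained-intron Tfec-202 held 25.9% in the RSEM layout (23.4, 28.7 and 24.8% by kallisto). In the RSEM layout Tfec-201 was at 13.5, 14.1 and 15.2% in replicates 1, 2 and 3. Tfec-203 and Tfec-204 each pass a 5′ splice site that Tfec-201 uses, at chromosome 6, 16844195 and 16835202.
Tfec-203, read-through: acaaccacaacctcaGTGAGTATGTTTCCC
Tfec-201, spliced at the same site: acaaccacaacctcaTTGAAAGAAGAAGAA
Tfec-204, read-through: aggctccggattcagGTTGTTATGCGATGG
Tfec-201, spliced at the same site: aggctccggattcagGAACTAGAAATACAA
Read-through took 62.1 ± 8.33% at the first site and 60.8 ± 6.49% at the second, lowest in replicate 1 at both, and kallisto gave 50.6 and 56.6%. The other genes of the family, which act on lysosome genes in most cells, had 45.0 ± 10.9 TPM for Tfe3 and 4.54 ± 3.30 TPM for Tfeb (SD, n = 3).

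Zeb2 carried by far the most chromatin RNA of the 9 genes and ranked 7 among all protein-coding genes. The gene (ENSMUSG00000026872.17, chromosome 2, 44983632 to 45117395, − strand, 29 isoforms) had 1430, 1500 and 1610 TPM from 56018, 54508 and 64214 counts. Its mean was 1513 ± 90.8 TPM (SD, n = 3), and on this scale the libraries were within 1.13 times of each other. On the other scales tried, the highest library was 1.25 to 1.59 times the lowest. Most of this RNA lay near the start of the gene. Zeb2-223, a processed transcript whose last exon begins 10905 bases from the first annotated start and ends at 13357, had 405, 554 and 603 TPM. Zeb2-204, a retained-intron transcript that ends at 10910, had 317, 354 and 379 TPM. Zeb2-211, which ends at 21812 and has a coding sequence of 111 bases, had 281, 251 and 274 TPM. All 3 end inside the intron that follows the exon ending at 7379, and the next exon of the full-length isoform Zeb2-201 begins at 94291 in a gene of 133764 bases. They held 34.3 ± 5.13, 23.1 ± 0.794 and 17.8 ± 1.61% of the Zeb2 TPM. The next isoform was Zeb2-214, which runs through the coding exons and had 107, 50.02 and 52.7 TPM, highest in replicate 1.

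The leading Zeb2 isoforms share an exon that ends at chromosome 2, 45110016, and differ in what follows it. The junctions show the retained intron, both early terminal exons and the next exon of the full-length isoform, with the bases after the shared exon in capitals.
Zeb2-204, read-through: ccaggaggaaaaacgGTAAGAAGAGGCCCG
Zeb2-223, spliced to an early last exon: ccaggaggaaaaacgCCTTGGAAGCAGGAA
Zeb2-211, spliced to another early last exon: ccaggaggaaaaacgAGGTTACCTTTTCCC
Zeb2-214, spliced to the next full-length exon: ccaggaggaaaaacgTGGTGAACTATGACA
The read-through isoform held 23.4 ± 0.567% of the TPM at this exon end, against 24 spliced isoforms (22.4% by kallisto). At the end of the next full-length exon (chromosome 2, 45022847) the read-through share was 29.4, 41.5 and 40.9%, lowest in replicate 1, in Zeb2-226 and Zeb2-209.
Zeb2-226, read-through: ctgtagccggtccagGTAAGTGTCTGTCTG
Zeb2-214, spliced: ctgtagccggtccagAAGAAATGAAGGAAG
At that second site kallisto gave 13.9% instead of 37.3%. It placed 302 TPM in Zeb2-218 and 30.5 TPM in Zeb2-227, short transcripts that were at 0 in the RSEM layout. The antisense gene Zeb2os overlaps Zeb2 by 3381 bases (chromosome 2, 45110707 to 45114087), and the tables also differed on it, with 110 ± 33.4 TPM in the gene tables and 731 TPM by kallisto. Reads of these genes cannot be told apart without strand. Zeb1, the paralog of Zeb2, had 20.1 ± 2.00 TPM, and the corepressor genes Ctbp1 and Ctbp2 had 14.0 ± 6.57 and 13.4 ± 4.87 TPM (SD, n = 3).

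**Figure D2:**
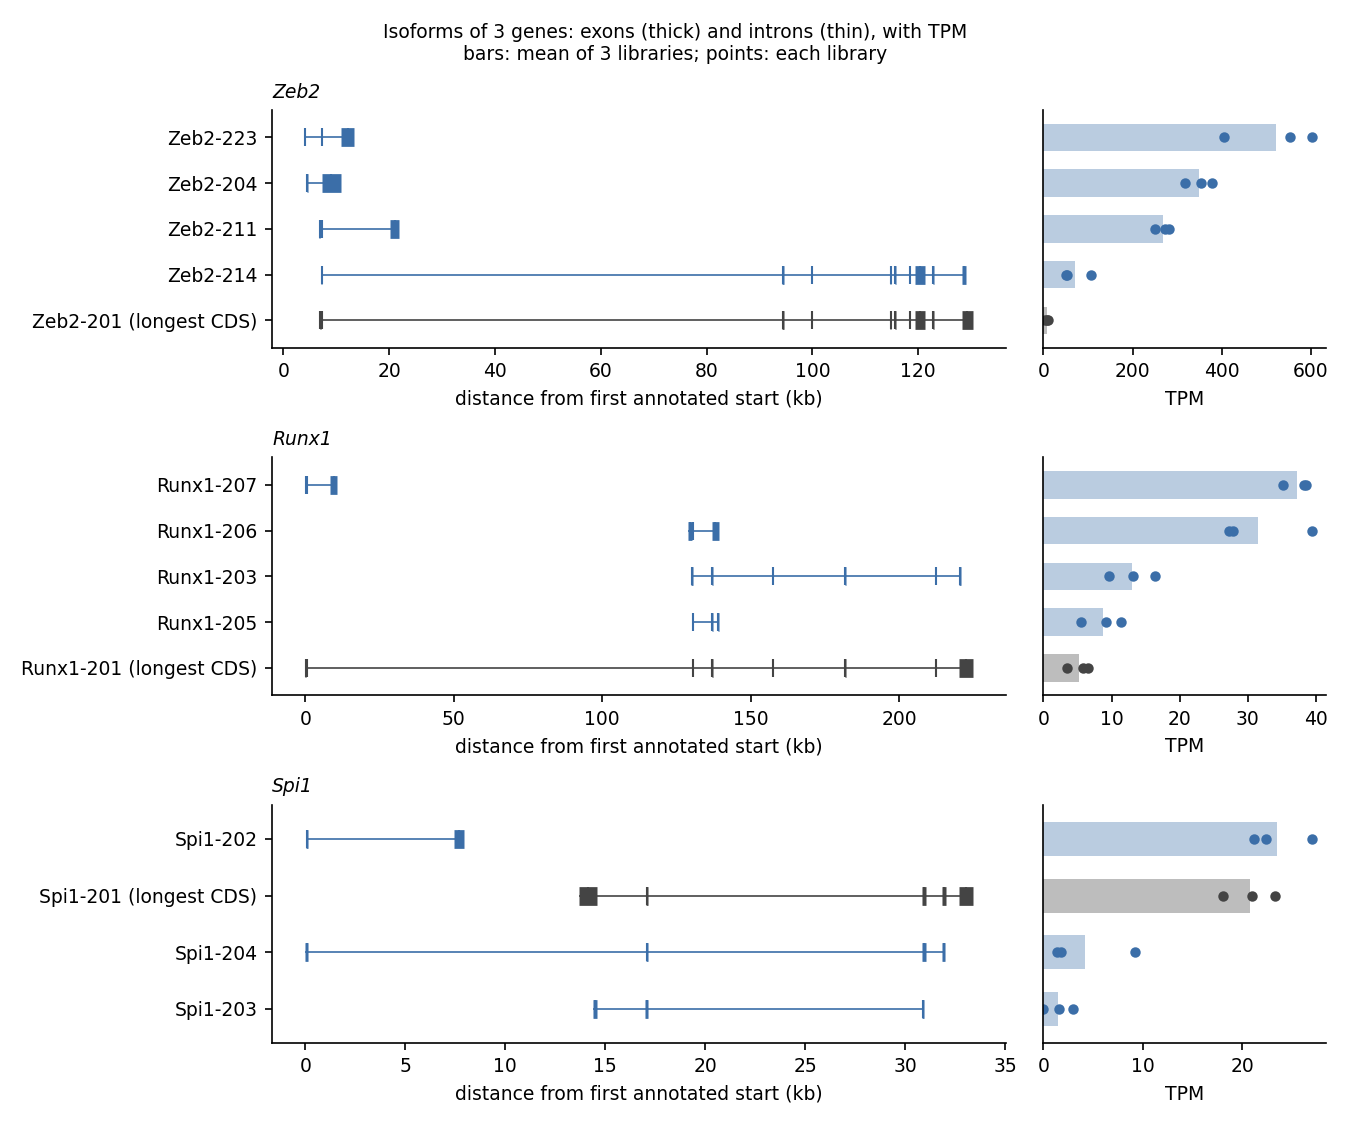
Exons (thick, the shortest drawn at a minimum width) and introns (thin) of the leading isoforms of Zeb2, Runx1 and Spi1 by distance from the first annotated start in kb, with their TPM at the right (bars are means of 3 libraries and points are libraries). The leading isoform of each gene ends before most of the exons of the isoform with the longest coding sequence (CDS), drawn in grey.

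This pattern was counted for all 9 genes as the share of TPM in isoforms that have under 50% of their bases in exons of the isoform with the longest coding sequence. The share was 87.3 ± 2.15% for Zeb2, 82.2 ± 4.52% for Tfec, 81.0 ± 6.14% for Maf, 73.7 ± 1.05% for Runx1, 53.5 ± 5.24% for Mitf and 47.2 ± 5.19% for Spi1 (SD, n = 3). It was 0% for Cebpa, Cebpb and Cebpd, whose leading isoforms have 1 exon. Of the 6 members with several isoforms and at least 10 TPM, 5 had more than 50% of their RNA in such isoforms, beside 19.5% of 4364 protein-coding genes of the same kind, whose median share was 24.2%. The kallisto-layout tables lowered the share to 65.4% for Zeb2 and to 16.9% for Spi1. For the other genes they gave 82.4% (Maf), 76.8% (Tfec), 66.5% (Runx1) and 46.6% (Mitf). The share depends on which isoforms are annotated, since intron reads can be assigned only where an annotated exon covers them.

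**Figure D3:**
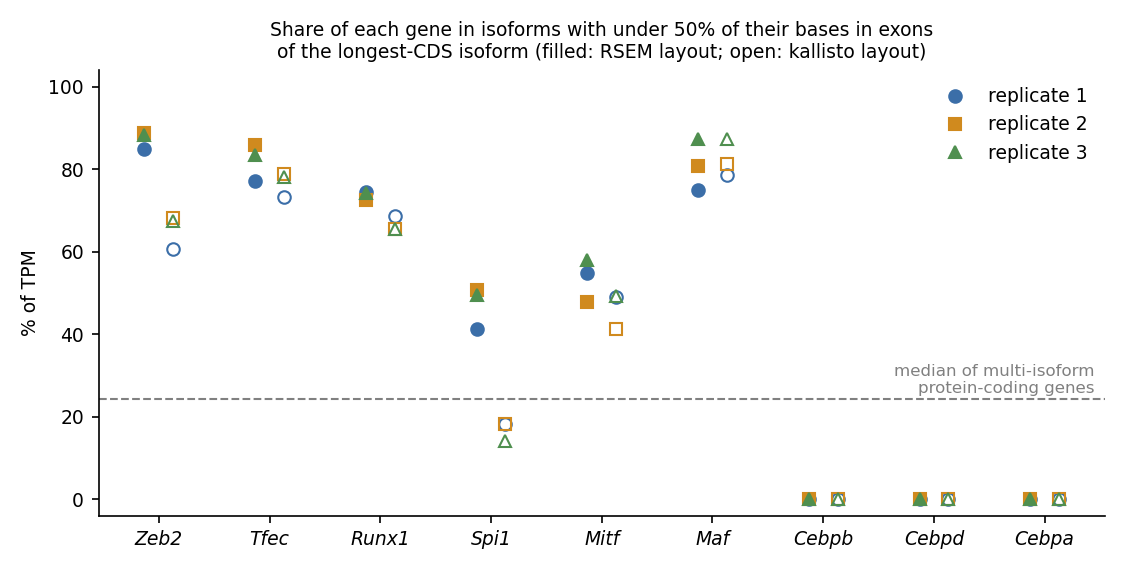
Share of each gene's TPM (%) in isoforms with under 50% of their bases in exons of the isoform with the longest coding sequence, per library, in the RSEM-layout (filled) and kallisto-layout (open) tables. Zeb2, Tfec, Runx1 and Maf lie above 60% in every library of both tables, Spi1 drops from 47.2% to 16.9% between tables, and the dashed line marks the median of 24.2% over 4364 genes.

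Counting only isoforms that keep at least 50% of the longest coding sequence brought the genes closer together. Zeb2 then had 142 ± 11.9 TPM, Maf 37.8 ± 11.7 TPM, Tfec 33.0 ± 22.5 TPM, Spi1 24.9 ± 2.27 TPM, Mitf 22.7 ± 1.51 TPM, Runx1 22.5 ± 2.56 TPM and Cebpb 13.6 ± 2.74 TPM (SD, n = 3). Zeb2 remained first and the C/EBP genes remained last. The order of the genes between them was not firm. Maf, whose isoforms are both coding, ranged from 24.7 to 47.3 TPM and overlapped Tfec, Spi1 and Runx1. By kallisto the coding levels were 113 TPM for Zeb2, 48.6 for Tfec, 41.7 for Spi1, 38.3 for Mitf, 30.9 for Maf and 20.9 for Runx1.

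The retained-intron class was also compared with the protein-coding class across the genome, since chromatin RNA can be incompletely spliced. Of the 9 genes only Zeb2, Tfec, Runx1 and Mitf have both classes. Tfec had 70.7, 90.4 and 208 TPM in retained-intron isoforms and 55.0, 60.6 and 175 TPM in protein-coding isoforms, with the former higher in 3 of 3 libraries. The log2 ratio was 0.40 with an SE of 0.20 (limma, adjusted p = 0.16), and in the kallisto layout it was −0.11 (limma, adjusted p = 0.62), with replicates 1 and 3 below 0. For Runx1 the retained-intron class was lower in 3 of 3 libraries, at 27.8, 27.2 and 39.5 TPM against 29.95, 36.2 and 42.7 TPM, with a log2 ratio of −0.21 (SE 0.20, limma adjusted p = 0.42). Zeb2 and Mitf had ratios of −0.08 (SE 0.22, limma adjusted p = 0.78) and 0.20 (SE 0.22, limma adjusted p = 0.48), and libraries on either side of 0. None of the 4 was called by limma, and none had an unadjusted p under 0.05. Of 4311 genes tested, 24.3% were called higher in the retained-intron class and 25.6% in the protein-coding class. The protein-coding class itself held transcripts with little coding sequence. For Tfec it had a mean of 96.7 TPM, of which 63.7 TPM lay in the single-exon Tfec-204, with 83 coding bases. For Zeb2 it had 487 TPM, of which 268 TPM lay in Zeb2-211, with 111 coding bases. The class labels also decide the result for Zeb2 and Runx1, whose leading isoforms are annotated as processed transcripts and so lie outside the ratio. With that class joined to the retained-intron class, an alternative chosen once results were known, the log2 ratio was 1.07 for Zeb2 (limma adjusted p = 0.021) and 0.93 for Runx1 (limma adjusted p = 0.025), both called. Of the 5372 genes tested in that way, 24.4% were called in the same direction. The calls of the other genes also changed with the input. Expected counts called Tfec at 1.70 and Mitf at −1.50 (limma, adjusted p = 0.0076 and 0.015), and the kallisto layout called Runx1 at −0.99 (limma, adjusted p = 0.010).

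**Figure D4:**
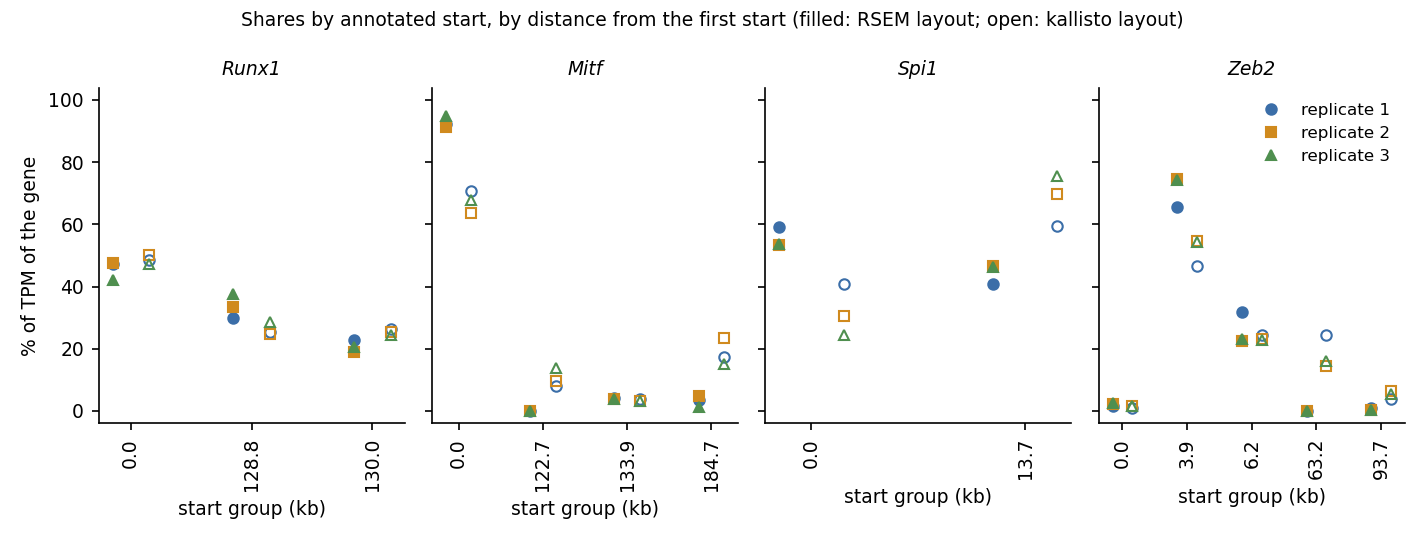
Share of the TPM (%) of Runx1, Mitf, Spi1 and Zeb2 by group of annotated starts within 1000 bases of each other, in order along the gene and labelled by the distance of the first of them from its first start (kb, not to scale), per library and for both tables (filled, RSEM layout, and open, kallisto layout). The distal start of Runx1 holds 42 to 50% in every library, the first start of Mitf is ahead in both tables, and the order of the 2 start groups of Spi1 differs between tables.

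By annotated start, 71.4 ± 5.17% of the Zeb2 TPM was assigned to a group of 12 isoforms 3887 to 4505 bases from the first start. A group of 13 isoforms 6221 to 7319 bases from it held 25.9 ± 5.23%. By kallisto these shares were 51.8 and 23.4%, and 18.3% was at a start 63154 bases in, listed at 0 in the RSEM layout. Starts were not measured, and Zeb2-223 of the former group shares its last exon with Zeb2-210 of the latter. The first annotated start of Zeb2 held 2.13 ± 0.489%. For Spi1, 55.3 ± 3.33% was assigned to the upstream start in the RSEM layout and 31.9 ± 8.19% in the kallisto layout, so that the leading start was not the same in the 2 tables.

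Variation between libraries was compared after scaling counts with TMM factors from edgeR. The log2 range over the 3 libraries was 1.84 for Tfec and 1.79 for Cebpa, larger than for 86.5 and 85.8% of the 14821 genes with a mean count of at least 10. The other 7 genes had ranges of 0.58 to 0.97. The median of the 9 ranges was 0.78, beside 0.76 for all genes, so the set as a whole varied about as much as other genes. The highest library was the same on all 5 scales for 6 of 9 genes, replicate 3 for Tfec, Runx1 and Cebpd, replicate 1 for Cebpb and Mitf and replicate 2 for Cebpa, and changed with the scale for Maf, Spi1 and Zeb2. The lowest library was the same for 3 of 9, Cebpa and Maf in replicate 1 and Mitf in replicate 2. On CPM with TMM factors 7 of 9 genes were lowest in replicate 2, and likewise 7 with DESeq2 size factors. This was 6 of 9 on kallisto-layout TPM, 4 of 9 on TPM rescaled to protein-coding genes and 1 of 9, Mitf, on TPM. The share of all genes that were lowest in replicate 2 was not counted, so these counts do not set the 9 genes apart from others. Protein-coding genes took 26.9, 35.1 and 30.1% of the TPM in replicates 1, 2 and 3. Without replicate 2, which stood apart, the median range of the 9 genes was 0.31, beside 0.39 for all genes.

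**Figure D5:**
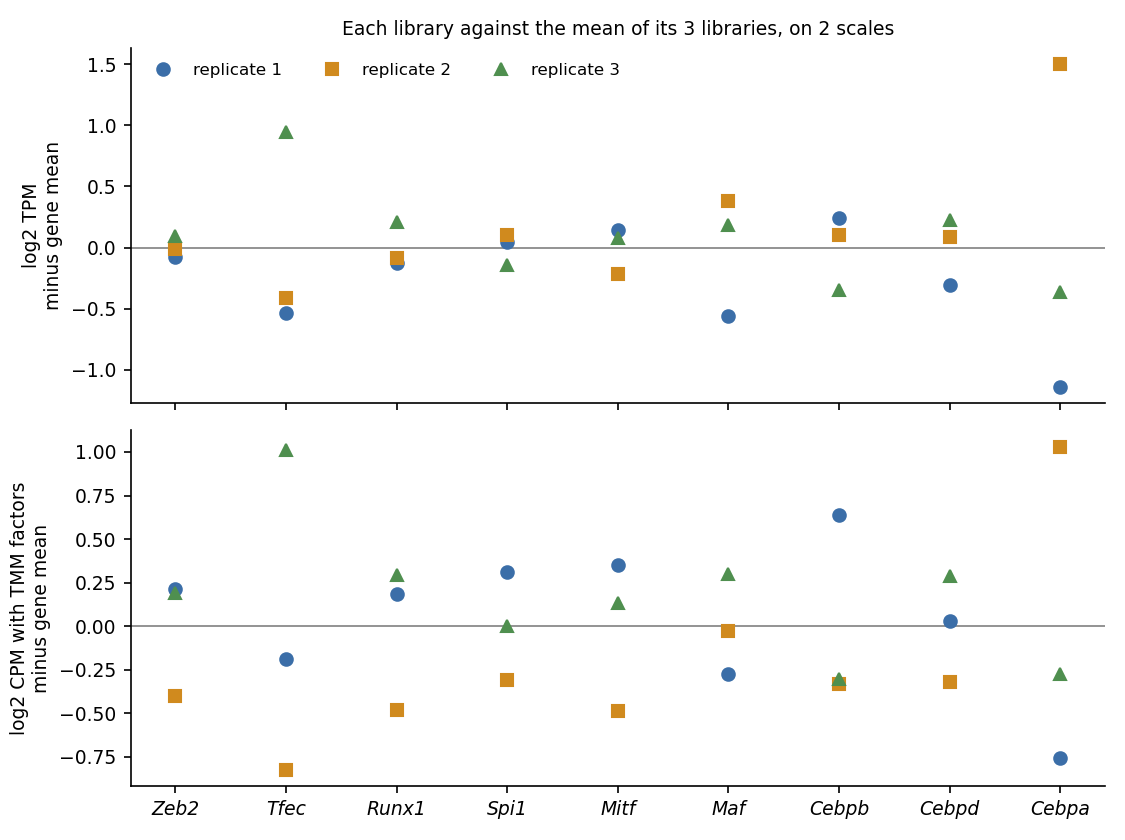
Level of each gene in each library minus its mean over the 3 libraries, in log2 units, on TPM (top) and on CPM with TMM factors (bottom). Tfec in replicate 3 and Cebpa in replicate 2 stand above the other libraries on both scales, whereas replicate 2 (squares) is lowest for 7 of 9 genes only on the lower scale. The same share over all genes was not counted.

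The relatives and partners of the 9 genes were transcribed to different degrees. Among 15 ETS-family genes, 11 reached 10 TPM in every library, and the list's median was 16.5 TPM. Etv3, a repressor of macrophage proliferation, had 148 ± 35.4 TPM (108.0 by kallisto), and Ets2 and Elf2 had 48.2 ± 9.80 and 35.6 ± 12.0 TPM (SD, n = 3). Spic, the PU.1 relative of iron-recycling macrophages, had 9.13 ± 3.38 TPM, and the B-cell relative Spib was undetected. Of the RUNX family, Runx2 had 2.33 ± 0.785 TPM and Runx3 had 0.19 ± 0.173 TPM, far below Runx1, and the partner gene Cbfb had 19.9 ± 7.02 TPM. Among 23 other regulators of myeloid fate, 6 reached 10 TPM in every library. These were Id2 (97.1 ± 3.83 TPM), Nr1h3 (85.5 ± 27.8 TPM), Ikzf1 (47.7 ± 11.6 TPM), Bach1 (28.2 ± 6.45 TPM), Irf8 (27.3 ± 9.01 TPM) and Lmo2 (15.8 ± 5.47 TPM). Factors of stem and progenitor cells differed in level. Myb had 1.56 ± 0.583 TPM, Meis1 1.24 ± 0.941 TPM, Tal1 1.09 ± 0.541 TPM and Hoxa9 0.0967 ± 0.142 TPM. Lyl1, with 13.9 ± 7.78 TPM, and Lmo2 were higher. Of 21 factors of other lineages, 1 reached 1 TPM in every library (Batf3, a dendritic cell factor, at 5.57 ± 2.38 TPM) and 9 were undetected, among them Pax5, Gata1, Tbx21 and Eomes. Their summed level was 4.42, 26.2 and 5.41 TPM, highest in the library with high stromal markers.

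Each member was set against the 63 other gene entries of the family and regulator lists, which include the other members. The entry nearest in level over the 3 libraries was found by the root mean square difference of log2(TPM + 1). Ets2 was nearest to Mitf (0.11), Cebpg to Spi1 (0.16), Gabpa to Cebpb (0.18), Elf2 to Maf (0.20) and Id2 to Runx1 (0.21). Meis1 was nearest to Cebpa (0.25) and Pparg to Cebpd (0.35). Tfec had no close neighbour, since Etv3 lay 1.01 away, and Zeb2 stood alone, with Tfec nearest at 2.97. These distances describe gene-table levels in 3 libraries only. By kallisto, Spi1 and Cebpg were far apart, at 145 and 40.8 TPM.

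Known target genes of the factors were described by list. All 14 myeloid targets of PU.1 and C/EBP reached 1 TPM in every library and 13 reached 10 TPM, beside 38.9 and 16.7% of protein-coding genes, and their median was 123 TPM. Several of these targets, among them Csf1r and Msr1, are also macrophage markers counted above, so this list is not independent of the markers. Cybb, the catalytic subunit of the phagocyte oxidase, had 515 ± 122 TPM, the scavenger receptor gene Msr1 had 314 ± 17.2 TPM and the cytokine receptor gene Csf2ra had 279 ± 17.2 TPM, while the kinase gene Btk was lowest at 10.5 ± 6.46 TPM (SD, n = 3). The 9 inducible targets of C/EBP factors were lower, with a median of 7.23 TPM and 3 at or above 10 TPM. The acute-phase gene Saa3 had 385 ± 90.8 TPM, the chemokine gene Ccl2 139 ± 42.8 TPM and the prostaglandin synthase gene Ptgs2 29.8 ± 10.4 TPM. Csf3 was lowest among the detected with 1, 4 and 2 counts, and Arg1 was undetected. Without replicate 2 the count rose to 4 through Il6, which had 12.5, 5.07 and 16.7 TPM.

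Of 9 targets of MAF, 5 reached 10 TPM in every library, and the median was 26.4 TPM. The complement gene C1qb had 108 ± 28.8 TPM, the efferocytosis receptor gene Mertk 102 ± 5.09 TPM and C1qc 76.2 ± 14.8 TPM, whereas Cd163 was lowest with 3, 7 and 7 counts. Of 11 targets of the MITF family, 4 reached 10 TPM in every library, with a list median of 1.66 TPM. Gpnmb, a glycoprotein of lysosomes, had 700 ± 82.9 TPM, the lysosomal chloride transporter gene Clcn7 had 363 ± 38.7 TPM and Csf3r had 100.2 ± 10.4 TPM (SD, n = 3). The osteoclast fusion genes Dcstamp and Ocstamp and the melanocyte channel gene Trpm1 were undetected in the gene tables, although kallisto listed Ocstamp at 8.14 TPM. The lowest detected gene was the osteoclast proton pump subunit Atp6v0d2, at 1.02 ± 0.36 TPM. With 1 group, whether these targets follow the level of any factor could not be examined.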

How the data were processed

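Ribosome-depleted total RNA of the chromatin fraction was sequenced in 3 libraries of 1 group, from fragments that the labels give as 250 to 400 bases. Expected counts and TPM per gene and per transcript were deposited by the authors in the layout that RSEM writes. Per the file notes, those tables derive from reads aligned to the transcriptome (mm10, GENCODE M21). TPM and estimated counts in kallisto's layout, derived from the reads directly, were also deposited by the authors. The aligner is not given in the sources used here, nor are tool versions or the strand setting. All 55536 gene rows matched the M21 annotation. Rows that name no gene held 1.94, 0.269 and 0.386% of the counts and were left out.

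The members and gene lists were chosen with earlier results of these data known. Kallisto-layout transcripts were summed per gene. In limma 3.58.1 (R 4.3.3), the intercept was tested over the 3 libraries with Benjamini-Hochberg adjustment over all genes at 0.05. The class ratio used TPM plus 0.1 for genes with a summed TPM of at least 5. The table difference used log2(TPM + 1), which understates differences of low genes, less the library median, for protein-coding genes with at least 1 TPM in either table, and a difference of at least 1 was required. Counts were rounded to whole numbers for edgeR 4.0.16 (TMM factors 1.02, 1.11 and 0.878) and DESeq2 1.42.0, which served only to scale libraries. Only the shared limma fit was tested on simulated data. The alternatives were other pseudocounts, filters, scalings and tables, expected counts, and each library left out.

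Named genes were all members, the genes of the family and regulator lists, the 3 highest and the lowest detected of the target and other-lineage lists, the undetected as a group, the 3 leading transcripts of a member, and overlapping genes. A gene of these lists is not reported here. Il6 and further isoforms were named after their values were seen. Promoter windows were matched by symbol for 6 of 9 members in the RefSeq table of GRCm38.p6, and junction sequences come from GENCODE M21 transcripts. Read-through shares at splice sites are means of library percentages in the RSEM layout and ratios of mean TPM by kallisto.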

Additional observations from a re-analysis of the deposited data

How the results depend on the processing

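The median level of the 9 genes, 49.3 TPM, became 72.2 TPM in the kallisto layout and 165 TPM with TPM rescaled to protein-coding genes, and the median share outside the longest-coding isoform, 53.5%, became 46.6% in the kallisto layout. The genes called by limma with the retained-intron class higher, 1049 in the report, numbered 681 with a filter of 20 TPM, 1810 in the kallisto layout and 426 to 838 with 1 library left out, lowest without replicate 3. Those with the protein-coding class higher, 1104, numbered 552 with that filter, 3593 on expected counts and 541 to 851 with 1 library left out. The genes tested numbered 4311 in the report, 2030 with that filter, 4871 in the kallisto layout and 7313 on expected counts. With the filter, 33.5 and 27.2% were called, beside 24.3 and 25.6% in the report. Of the 4 members, 0 were called; expected counts called 1 in each direction, Tfec at 1.70 and Mitf at −1.50 (limma, adjusted p = 0.0076 and 0.015), and the kallisto layout called 1, Runx1 at −0.99 (limma, adjusted p = 0.010). Joining processed transcripts to the retained-intron class called 2, Runx1 at 0.93 and Zeb2 at 1.07. Ratios that changed sign without being called were Tfec at −0.11 and Mitf at −0.20 in the kallisto layout, Runx1 at 0.58 and Zeb2 at 0.28 on expected counts, and Zeb2, at −0.16 to 0.076 with 1 library left out (positive without replicate 1), so each of the 4 changed sign under some alternative. Joining alters which isoforms are summed, and expected counts do not correct for isoform length; beyond this the cause was not tested.

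Genes higher in the kallisto layout, 1799, numbered 666 with a filter of 10 TPM, which tests fewer genes, and 2898 without subtraction of the library median. Those higher in the RSEM layout, 55, numbered 108 with a pseudocount of 0.1, 31 without a filter, 18 with a filter of 10 TPM, 28 without that subtraction and 36 to 107 with 1 library left out. Spi1 was called under every alternative tried. The Zeb2 difference between tables turned to 0.070 without subtraction of the median. Joining the proximal starts of Runx1 raised their share from 33.6 to 54.4%. The median log2 range of the 9 genes, 0.78, was 0.31 to 0.63 with 1 library left out, which lowers a range by construction. No paired analysis was possible because all libraries belong to 1 group.

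Low counts limit Cebpa, with 11 to 58 per library, and 3 libraries of 1 group give no comparison of conditions. Isoform shares rest on how each tool divides reads between overlapping transcripts.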
